A study of Mus musculus with 27 samples.

Results

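Livers of male mice with and without deletion of *Kdm5b* were compared during WDA feeding, a Western diet given together with alcohol to drink. The comparison holds 6 of the 27 samples of the series, all *Kdm5b* fl/fl males: mice 16, 17 and 18, labelled AAV8-CMV-Cre + WDA (KO, n = 3), and mice 19, 20 and 21, labelled as AAV8-control + WDA (WT, n = 3). Samples were assigned to KO and WT by these labels, and all 6 libraries carry the same experiment number and lie in the same count table. Each library is 1 mouse, so p-values measure the spread between mice. The labels give 8 weeks of WDA, while the study's methods give a longer feeding period. The labels give neither the age of the mice nor the time of injection. A supplementary legend of the study describes AAV injection when alcohol feeding began, but for a longer feeding period than these labels give. The other samples of the series are females on WDA, and males and females labelled with 16 weeks of WDA, an AAV vector and 4 weeks of resolution (Res). The KO is limited as a model in that the CMV promoter is not restricted to one cell type, while AAV8 mainly reaches the liver. Every comparison was made with all 6 mice and again without KO mouse 17.

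KDM5B removes methyl groups from lysine 4 of histone H3 (H3K4), a mark found at active promoters. The liver holds hepatocytes, which make bile acids, urea and secreted proteins, beside Kupffer cells, stellate cells, bile duct cells and lymphocytes. Interferons act on all of these and switch on a shared set of antiviral and antigen presentation genes. The liver also differs between the sexes, because the male pattern of growth hormone pulses keeps a set of male-biased genes on and a set of female-biased genes low. LXR is the oxysterol receptor that controls cholesterol export.

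The 6 libraries held 18122300 to 18810500 expected counts, with 12107 to 13462 genes at 10 counts or more. Hepatocyte transcripts dominated in every mouse: the list of hepatocyte factors and products summed to 101241 to 111564 CPM, reads scaled to a common library total, in KO mice and to 112575 to 118122 CPM in WT mice. Mouse 17 stood apart. The first principal component, with 70.5% of the variance, separated it from the others, and its correlations with them on log2 CPM were 0.915 to 0.942, against 0.981 to 0.991 among the other 5 mice. Its scaling factor, which corrects for differences in RNA composition, was 1.35 against 0.910 to 0.962.

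*Kdm5b*, the target of the Cre (75605, a coding gene on chromosome 1 from 134560178 to 134632878 in GRCm38.p6) had 20.6, 21.2 and 19.6 CPM in KO mice 16, 17 and 18 and 23.6, 22.2 and 22.9 CPM in WT mice 19, 20 and 21. The groups did not overlap, but the KO mean was 20.5 ± 0.842 CPM (SD, n = 3) against 22.9 ± 0.663 CPM (SD, n = 3), so most *Kdm5b* reads remained. The log2 fold change was -0.16 (SE 0.09, unadjusted p = 0.116) with 6 mice and -0.19 (SE 0.09, unadjusted p = 0.0727) without mouse 17 in edgeR's quasi-likelihood test. On the deposited FPKM values the difference with 6 mice was 0.02, beside a median of 0.13 over all genes tested. Mouse 17 had 4.74 FPKM. Without it, KO mice 16 and 18 had 3.26 and 3.03 FPKM, below the 3.71, 3.49 and 3.44 FPKM of WT mice 19, 20 and 21. A count for the entire gene cannot tell whether transcripts still present carry the floxed exons. In this bulk tissue, fewer cells of a type and less RNA per cell cannot be told apart. The 7 other H3K4 demethylases measured had log2 fold changes between -0.05 and 0.25 with 6 mice, and none had an unadjusted p below 0.05 in edgeR's test.

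With 6 mice, edgeR's quasi-likelihood test, adjusted by the Benjamini-Hochberg method, called 0 of 12419 genes (0%), with a smallest adjusted p of 0.588. An unadjusted p below 0.05 was found for 958 genes, against 621 by chance, of which 691 were higher in KO (5.56%) and 267 lower (2.15%), while limma on the FPKM values gave 398 higher and 72 lower. For KO versus WT, WDA males, without mouse 17, the test again called 0 of 12470 genes, with a smallest adjusted p of 0.286, and 1140 genes reached an unadjusted p below 0.05, with 642 of them higher (5.15%) and 498 lower (3.99%), or 740 higher and 295 lower on the FPKM values. The common biological coefficient of variation was 0.246 with mouse 17 and 0.115 without it. DESeq2 called 17 genes with 6 mice (0.137% of those tested, 14 higher and 3 lower) and 93 without mouse 17 (0.746%, 62 higher and 31 lower), and 14 of these were called in both. With 6 mice, the groups did not overlap for 1008 genes higher in KO (8.12%) and 976 lower (7.86%), and without mouse 17 for 1605 (12.9%) and 1633 (13.1%). The gene groups below are therefore described by their values, their counts at an unadjusted p below 0.05 and the DESeq2 calls. With 3 mice against 3, or 2 against 3, the smallest two-sided p that exact permutation of the mice allows for one gene is 0.1.

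**Figure D1:**
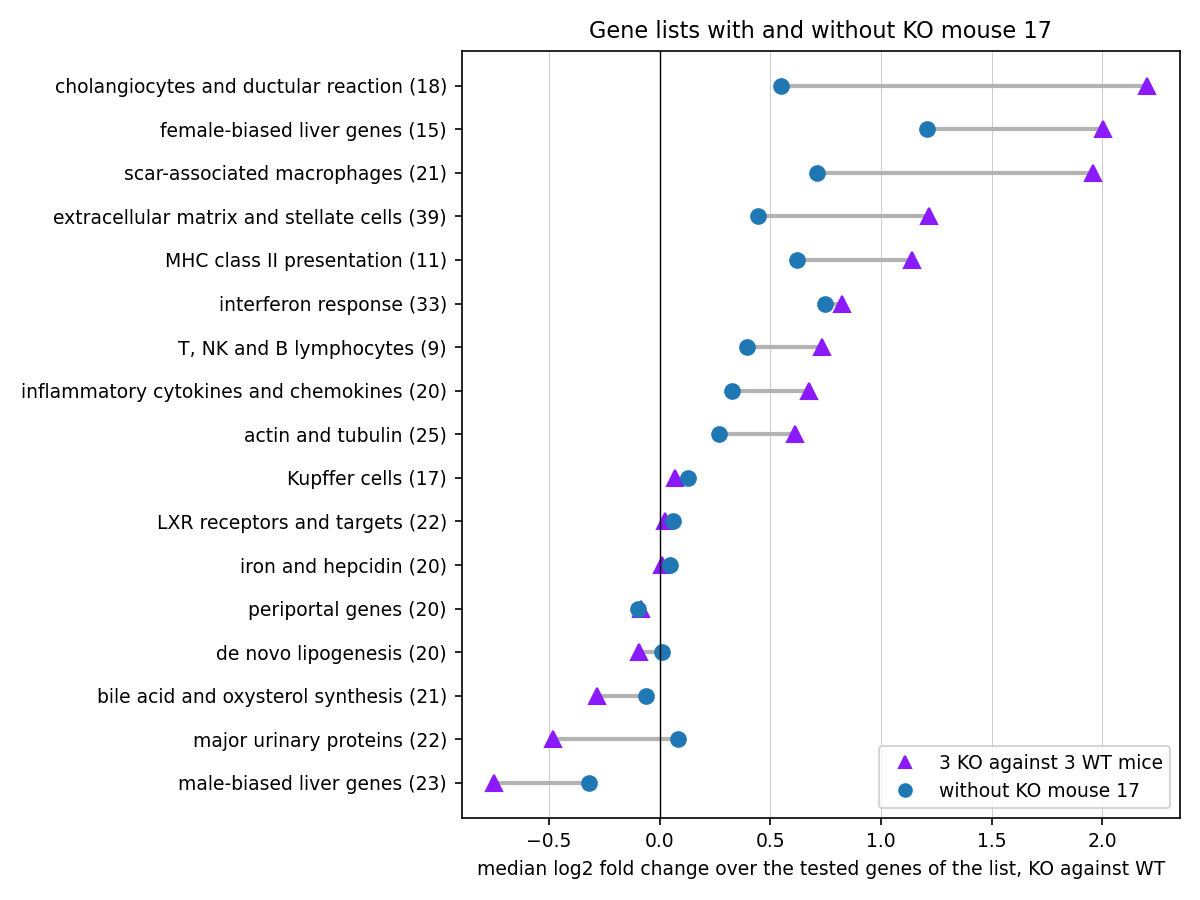
Median log2 fold change, KO against WT, over the tested genes of each list (number in parentheses), with 6 mice (triangles) and without KO mouse 17 (circles). The interferon list differed little between the fits, from 0.82 to 0.75, while the lists of matrix, macrophage and bile duct genes moved toward 0.

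Interferon-inducible genes were higher in KO livers. All 33 tested members of a list of 36 had a higher level in KO with 6 mice and again without mouse 17, with a median log2 fold change of 0.82 and 0.75, beside a median of -0.00 over all genes tested. At an unadjusted p below 0.05 there were 24 higher and 0 lower with 6 mice, and 28 higher and 0 lower without mouse 17. The groups did not overlap for 22 and 25 members, all higher, while 8.12% and 12.9% of all genes tested were higher without overlap. DESeq2 called 4 members with 6 mice and 7 without mouse 17, beside 0.137% and 0.746% of all genes tested. Mouse 16 was highest for many of them, and the median was 0.65 without mouse 16 and 0.41 without both mouse 16 and mouse 17. The order of the summed level of the list was mouse 16 at 1097 CPM, mouse 17 at 774 CPM and mouse 18 at 759 CPM, against 556 to 642 CPM in WT mice.

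The promoters of some of these genes are shown because they hold the letters that interferon-activated factors are known to recognize. The windows are from RefSeq (GRCm38.p6), are written 5′ to 3′ along the transcript, and are stretches of the 300 bases that run from 250 before to 50 after the transcript start of the RefSeq table. For *Ifit3* that start lies inside the annotated span of the gene, downstream of its first base. Capitals mark matches, on either strand, to the core of the interferon-stimulated response element (GAAANNGAAA), bound by IRF factors, and to the gamma-activated site (TTCNNNGAA), a site of the response to interferon gamma.
*Tgtp1*, chr11:48992284-48992364, minus strand: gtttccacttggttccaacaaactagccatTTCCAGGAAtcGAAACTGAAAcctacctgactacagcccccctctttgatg
*Tgtp2*, chr11:49064243-49064323, minus strand: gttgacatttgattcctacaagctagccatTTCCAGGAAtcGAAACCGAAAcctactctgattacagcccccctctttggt
*Igtp*, chr11:58199481-58199561, plus strand: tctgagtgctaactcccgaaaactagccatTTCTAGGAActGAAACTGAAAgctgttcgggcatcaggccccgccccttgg
*Gbp2*, chr3:142620574-142620643, plus strand: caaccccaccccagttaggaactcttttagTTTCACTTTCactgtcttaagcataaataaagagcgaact
*Ifit3*, chr19:34583343-34583446, plus strand: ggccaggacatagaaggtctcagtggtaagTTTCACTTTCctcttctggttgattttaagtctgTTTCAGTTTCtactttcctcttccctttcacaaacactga
*Ifit1*, chr19:34640755-34640843, plus strand: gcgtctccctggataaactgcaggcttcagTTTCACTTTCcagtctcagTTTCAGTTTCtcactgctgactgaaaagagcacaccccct
*Cxcl10*, chr5:92349063-92349132, minus strand: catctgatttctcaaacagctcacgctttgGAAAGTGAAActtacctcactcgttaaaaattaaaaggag

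In *Tgtp1*, *Tgtp2* and *Igtp* a match to each motif lay side by side, with the gamma-activated site first, starting 88, 81 and 45 bases before the transcript start. In *Gbp2*, *Ifit3* and *Ifit1* the response element was read on the opposite strand, 1 time in *Gbp2* and 2 times in *Ifit3* and *Ifit1*. Of the 36 listed genes, 28 had a promoter window, and 18 of these held the response element core, which 3.44% of all 32851 windows hold. The gamma-activated site was in 9 of the 28 and in 8.3% of all windows, and both were in 7 of the 28 and in 0.45% of all windows. Each motif was searched on both strands, and matches to the 2 motifs may overlap. A match shows only that the letters are present.

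Among the interferon-inducible GTPases, *Tgtp1* (21822, chromosome 11 from 48985329 to 48992246), which acts against intracellular parasites, had 29.1, 13.8 and 11.9 CPM in KO mice 16, 17 and 18 and 2.87, 3.20 and 3.17 CPM in WT mice 19, 20 and 21. The lowest KO mouse was well above the highest WT mouse. Its log2 fold change was 2.56 (SE 0.37) with 6 mice and 2.73 (SE 0.34) without mouse 17, with DESeq2 adjusted p-values of 3.08e-07 and 9.07e-11, the smallest in each fit. In edgeR's test the adjusted p-values were 0.588 and 0.286. Its neighbour copy *Tgtp2*, whose reads could be split with it, had log2 fold changes of 1.22 and 1.27 (DESeq2 adjusted p = 0.0647 and 0.0145).

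The guanylate-binding proteins coat vacuoles that hold microbes. *Gbp6* had 27.6, 14.7 and 14.2 CPM in KO mice and 7.53, 6.80 and 6.63 CPM in WT mice, and *Gbp2* 11.2, 8.45 and 6.75 CPM against 4.25, 3.54 and 3.93 CPM. All KO mice were above all WT mice for both genes. The log2 fold changes were 1.43 (SE 0.28) and 1.58 (SE 0.25) for *Gbp6*, with and without mouse 17, and 1.17 (SE 0.22) and 1.20 (SE 0.23) for *Gbp2*. DESeq2 called both in both fits, with adjusted p-values of 0.0116 and 5.47e-05 for *Gbp6* and 0.0345 and 0.0128 for *Gbp2*. *Gbp10*, which lies outside the list and shares sequence with *Gbp6*, had 17.9, 4.53 and 6.29 CPM against 2.76, 2.51 and 2.76 CPM, and DESeq2 called it only without mouse 17 (adjusted p = 0.000147, against 0.116 with 6 mice).

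Among the immunity-related GTPases mouse 16 stood above the other KO mice. *Igtp* had 53.6, 19.6 and 22.1 CPM in KO mice and 14.5, 13.3 and 18.9 CPM in WT mice, so mice 17 and 18 lay just above the highest WT mouse. *Irgm2* had 86.1, 41.0 and 40.3 CPM against 34.2, 33.1 and 37.4 CPM, with the same pattern. *Iigp1* had 259, 170 and 224 CPM against 141, 160 and 183 CPM, where mouse 17 lay within the WT range and the log2 fold change was 0.43 (SE 0.19) with it and 0.58 (SE 0.12) without it.

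The antiviral Ifit genes were close together across KO mice. *Ifit3* had 16.7, 14.6 and 11.0 CPM against 8.56, 7.03 and 8.04 CPM, and *Ifit1* 7.74, 7.39 and 6.69 CPM against 3.50, 3.77 and 5.22 CPM. *Ifit3b*, a near copy of *Ifit3*, had 3.92, 4.00 and 3.58 CPM against 1.61, 1.66 and 1.70 CPM, a log2 fold change of 1.21 (SE 0.20) with 6 mice (DESeq2 adjusted p = 0.0411). No KO mouse of these 3 genes reached down to the WT mice. *Rsad2*, which encodes the antiviral enzyme viperin, was driven by mouse 17 at 24.4 CPM, beside 9.90 and 9.34 CPM in mice 16 and 18 and 5.60 to 7.45 CPM in WT mice. *Usp18*, the protease that removes ISG15 and damps interferon signaling, had log2 fold changes of 0.83 and 0.98, and *Bst2*, which encodes tetherin, had 0.15 and 0.30 with groups that overlapped with 6 mice.

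The chemokines that draw CXCR3-bearing lymphocytes differed more between KO mice. *Cxcl10* had 10.8, 8.41 and 2.94 CPM against 1.67, 2.11 and 2.70 CPM, so mouse 18 lay only just above the WT mice. Its log2 fold change was 1.77 (SE 0.48) with 6 mice, 1.67 (SE 0.48) without mouse 17, and 0.44 when mouse 16 was also left out. *Cxcl9* had 24.4, 12.8 and 11.3 CPM against 5.52, 9.77 and 7.81 CPM, with log2 fold changes of 1.07 and 1.22.

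The transcription factors *Irf1* and *Irf7* had log2 fold changes of 0.57 and 0.49 with 6 mice, and mouse 18 lay within the WT range for both.

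**Figure D2:**
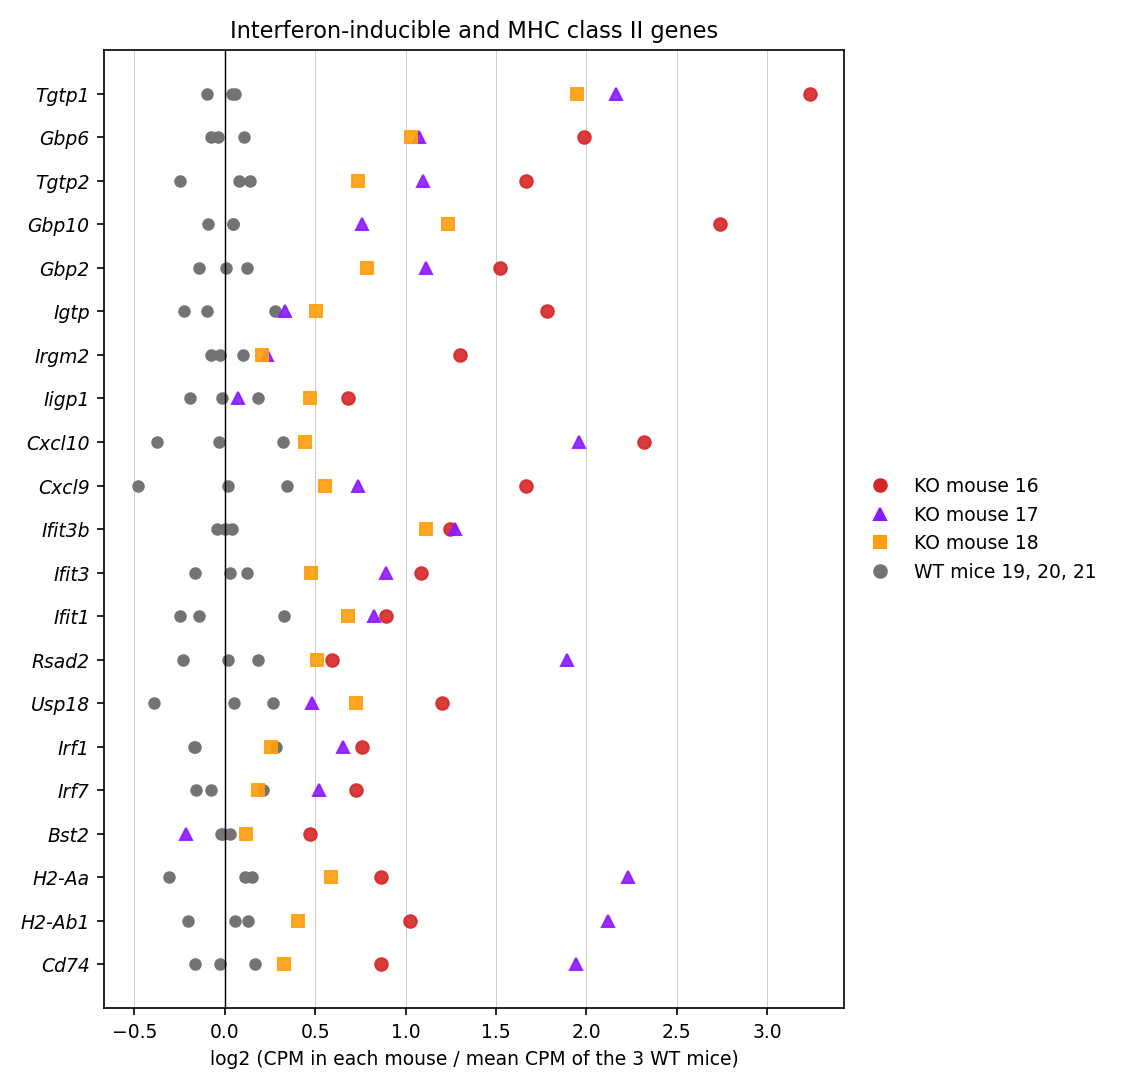
Level of interferon-inducible and MHC class II genes in each mouse, as the log2 ratio of its CPM to the mean CPM of the 3 WT mice (line at 0). KO mouse 16 lies farthest right for most GTPases, at 29.1 CPM for *Tgtp1*, and KO mouse 17 for the MHC class II genes, at 186 CPM for *H2-Aa*.

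Lymphocyte markers were low, and their summed level overlapped between the groups. Of 25 listed, 17 were in the table and 9 had enough counts to be tested. Of these, 3 were higher and 1 lower in KO without overlap in each fit. Over all genes tested, 8.12% were higher and 7.86% lower without overlap with 6 mice, and 12.9% and 13.1% without mouse 17. A gene can pass the count filter through KO libraries, as *Ms4a1* did with 17, 23 and 13 counts in KO mice against 5, 6 and 9 in WT mice. The tally and median of the tested members can therefore lean toward higher in KO and are descriptions only. The list summed to 8.25 to 18.5 CPM in KO mice and 10.1 to 13.1 CPM in WT mice, with mouse 16 highest and mouse 18 lowest, and its median log2 fold change was 0.73 with 6 mice, 0.39 without mouse 17 and -0.36 without both mouse 16 and mouse 17. *Nkg7*, of NK and cytotoxic T cells, had 2.05, 1.31 and 0.750 CPM against 0.632, 0.514 and 0.293 CPM, and *Ms4a1*, of B cells, 0.940, 0.938 and 0.750 CPM against 0.287, 0.343 and 0.528 CPM. *Cd4* was lower in KO, at 3.76, 1.80 and 2.02 CPM against 4.83, 4.86 and 4.52 CPM. These levels are low, and their part in the interferon result was not tested. Kupffer cell markers summed to 730 to 1011 CPM in KO mice and 689 to 904 CPM in WT mice, with a median log2 fold change of 0.07 and 0.13.

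Genes of MHC class II presentation, by which macrophages, dendritic cells and B cells show antigen to CD4 T cells, were higher in KO for all 11 members in both fits. The median was 1.14 with 6 mice, 0.62 without mouse 17 and 0.32 without both mouse 16 and mouse 17, and 9 and 6 members had an unadjusted p below 0.05, all higher. DESeq2 called 0 members with 6 mice and 3 without mouse 17, beside 0.137% and 0.746% of all genes tested. *H2-Aa* had 72.4, 186 and 59.7 CPM against 43.0, 44.2 and 32.1 CPM, and *Cd74*, the invariant chain, 160, 337 and 110 CPM against 86.2, 98.6 and 78.4 CPM. Mouse 17 was highest for both, and mice 16 and 18 also lay above all WT mice. The log2 fold change of *H2-Aa* was 1.42 (SE 0.43) with mouse 17 and 0.73 (SE 0.15) without it (DESeq2 adjusted p = 0.141 and 0.00531), that of *H2-Ab1* 1.36 and 0.75, and that of *Ciita*, the master activator of these genes, 1.14 and 0.41.

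Among sex-biased liver genes, most tested female-biased members were higher and most tested male-biased members lower in KO. Of 25 female-biased genes 15 were tested, and 14 were higher in KO with 6 mice and 12 without mouse 17, with a median log2 fold change of 2.0 and 1.21, and 0.56 without both mouse 16 and mouse 17. At an unadjusted p below 0.05 there were 9 higher and 0 lower in both fits, and DESeq2 called 2 with 6 mice and 0 without mouse 17. Over all genes tested DESeq2 called 0.137% and 0.746%. The groups did not overlap for 4 and 5 of the 15, all higher, while 8.12% and 12.9% of all genes tested were higher without overlap. A gene with few reads in WT males can pass the count filter mainly through KO libraries. The tested female-biased members can therefore lean toward higher in KO, and their tally and median are descriptions only. *Cyp2b9* (13094, chromosome 7 from 26173350 to 26210661), a female-biased cytochrome P450, had 50.9, 90.9 and 29.5 CPM in KO mice and 15.8, 3.71 and 4.93 CPM in WT mice. All KO mice were above WT mouse 19, which was itself above the other WT mice. Its log2 fold change was 2.81 (SE 0.64, DESeq2 adjusted p = 0.00241) with 6 mice and 2.3 (SE 0.50, DESeq2 adjusted p = 0.272) without mouse 17.

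*Cyp2a4* had 46.3, 427 and 57.0 CPM against 30.3, 2.57 and 1.17 CPM, where mouse 19 again lay near the KO mice. *Slc22a26*, an organic anion transporter gene, had 4.53, 4.69 and 2.13 CPM against 1.32, 0.629 and 0.763 CPM, with log2 fold changes of 2.06 (SE 0.43, DESeq2 adjusted p = 0.0345) and 1.88 (SE 0.42), where DESeq2 gave no adjusted p. For other female-biased genes the difference lay mainly in mouse 16. *Cyp2b13* had 20.7, 2.86 and 0.981 CPM against 1.78, 0.229 and 0.176 CPM, and *Cyp3a41a* 12.4, 2.04 and 0.346 CPM against 0.575, 0 and 0.117 CPM. The groups overlapped for both. The Cyp2a, Cyp2b and Cyp3a genes have close copies between which reads could be split, and *Cyp2a4* had fractional expected counts, such as 837.25 in mouse 16.

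Of 23 male-biased genes tested, 20 were lower in KO with 6 mice and 17 without mouse 17, with a median log2 fold change of -0.75 and -0.32. With 6 mice 3 were lower and 1 higher at an unadjusted p below 0.05, and without mouse 17, 11 were lower and 1 higher. The groups did not overlap for 10 lower members in each fit, and for 1 and 3 higher members. Over all genes tested, 7.86% and 13.1% were lower without overlap, and 8.12% and 12.9% higher. DESeq2 called 0 with 6 mice and 5 without mouse 17, beside 0.137% and 0.746% of all genes tested. *Elovl3*, a fatty acid elongase, had 172, 8.69 and 175 CPM in KO mice and 394, 309 and 253 CPM in WT mice. Mouse 17 had almost none, and mice 16 and 18 were near each other below all WT mice. Its log2 fold change was -1.43 (SE 0.89, DESeq2 adjusted p = 0.777) with mouse 17 and -0.88 (SE 0.17, DESeq2 adjusted p = 0.000258) without it.

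*Mup20*, which encodes the male pheromone darcin, had 2154, 919 and 1999 CPM against 2892, 4872 and 3899 CPM, with log2 fold changes of -1.20 and -0.91 (DESeq2 adjusted p = 0.116 and 0.000716). *Serpina1e*, an alpha-1 antitrypsin copy, had 2154, 296 and 1498 CPM against 4448, 4418 and 2897 CPM, and *Gstp1*, a glutathione transferase, 1076, 434 and 746 CPM against 1428, 1646 and 1269 CPM. For these 3 genes all KO mice were below all WT mice, and mouse 17 was lowest. Reads of the Mup, Serpina1 and Gstp copies could be split between them. *Hsd3b5* and *Cyp7b1* had log2 fold changes of -1.48 and -1.37 with 6 mice (unadjusted p = 0.151 and 0.138 in edgeR's test) and -0.91 and -0.84 without mouse 17. The groups overlapped for *Cyp7b1* in both fits. *Slco1a1*, an organic anion transporter gene, had -0.42 without mouse 17, and -0.98 for males with mouse 17 in the fit that also held the females. *Socs2*, a growth hormone target that damps its receptor's signal, was higher in KO without overlap in both fits, with 11.3, 11.8 and 7.73 CPM against 5.57, 5.14 and 5.75 CPM and log2 fold changes of 0.91 (SE 0.19) and 0.80 (SE 0.19).

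**Figure D3:**
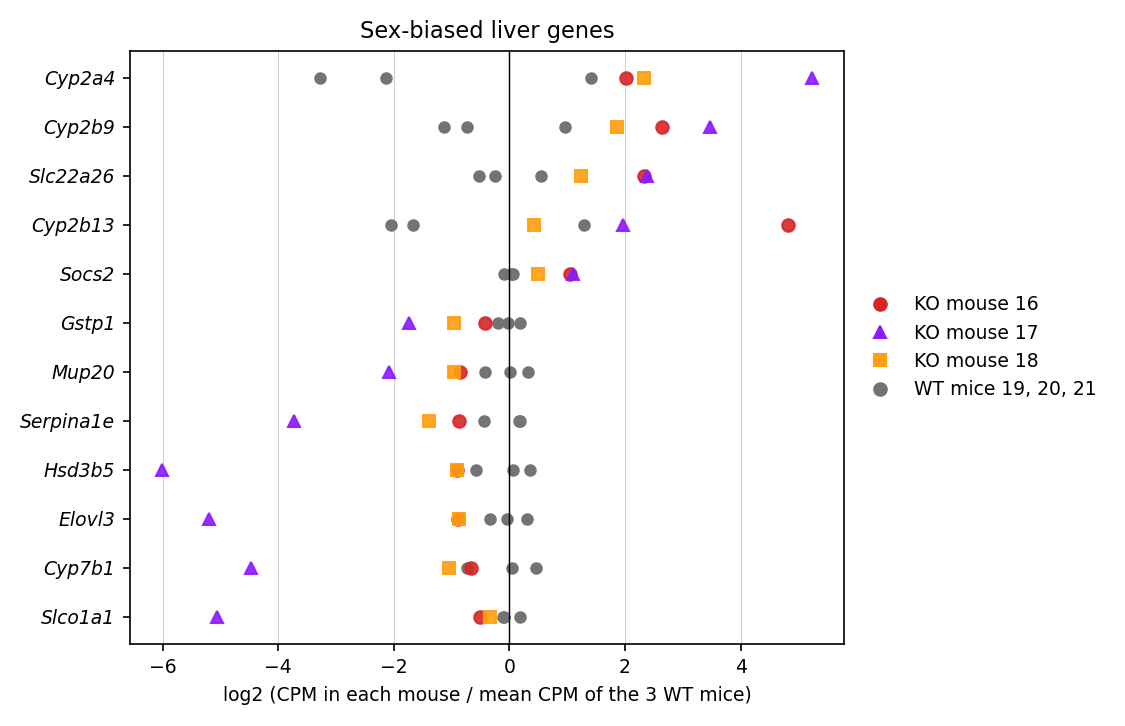
Level of sex-biased liver genes in each mouse, as the log2 ratio of its CPM to the mean CPM of the 3 WT mice (line at 0), from female-biased genes at the top to male-biased genes at the bottom. KO mice 16 and 18 lie left of the WT mice for *Elovl3*, with 172 and 175 CPM against 253 to 394 CPM, and KO mouse 17 lies much farther left.

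*Abca1* and *Srebf1* were higher in KO in both fits, with a median of the LXR list near 0. Of 22 LXR receptors and targets, 11 were higher with 6 mice and 14 without mouse 17, with a median of 0.03 and 0.06, and 3 and 4 were higher at an unadjusted p below 0.05 with 0 lower. *Abca1* (11303, chromosome 4 from 53030789 to 53159988), which passes cholesterol to apolipoprotein A-I, had 223, 245 and 226 CPM in KO mice and 159, 137 and 135 CPM in WT mice. The KO mice lay close together and above every WT mouse, mouse 17 included. The log2 fold change was 0.69 (SE 0.12, DESeq2 adjusted p = 0.000231) with 6 mice and 0.64 (SE 0.10, DESeq2 adjusted p = 2.34e-05) without mouse 17.

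*Srebf1*, the transcription factor of fatty acid synthesis and an LXR target, had 85.1, 134 and 108 CPM against 62.9, 59.9 and 59.7 CPM. The WT mice hardly differed among themselves and the KO mice were all higher, with log2 fold changes of 0.84 (SE 0.17, DESeq2 adjusted p = 0.0232) and 0.66 (SE 0.11, DESeq2 adjusted p = 0.000364). *Abcg5* and *Abcg8*, the subunits of the transporter that exports sterols to bile, had 309, 124 and 255 CPM against 150, 218 and 187 CPM, and 238, 92.4 and 215 CPM against 149, 171 and 132 CPM. Mouse 17 was the lowest of all 6 mice for both. Without it the groups did not overlap, and the log2 fold changes were 0.61 (SE 0.15) and 0.59 (SE 0.12), against 0.31 and 0.27 with it, with DESeq2 adjusted p-values of 0.0296 and 0.00281 against 0.865 and 0.888. *Nr1h3*, which encodes LXR alpha itself, was at 71.4, 53.1 and 69.6 CPM against 75.0, 79.8 and 82.0 CPM.

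The lipogenesis list, of fatty acid synthesis enzymes, of 20 tested genes had a median log2 fold change of -0.09 and 0.01, with 2 and 1 members higher and 0 lower at an unadjusted p below 0.05. *Cd36*, which imports fatty acids, had 230, 239 and 253 CPM against 139, 158 and 182 CPM, and *Bdh1*, the mitochondrial enzyme of ketone bodies, 288, 300 and 304 CPM against 223, 218 and 220 CPM. All KO mice were above all WT mice for both. The log2 fold changes with 6 mice were 0.59 (SE 0.14, DESeq2 adjusted p = 0.0411) and 0.43 (SE 0.11, DESeq2 adjusted p = 0.00243), and without mouse 17 they were 0.60 and 0.42.

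In bile acid synthesis the rate-limiting enzyme was lower in KO. Of 21 tested genes, 18 were lower with 6 mice and 13 without mouse 17, with a median of -0.28 and -0.06, and 3 and 5 were lower at an unadjusted p below 0.05, with 0 and 1 higher. *Cyp7a1* (13122, chromosome 4 from 6265612 to 6275632), which starts the classic pathway, had 175, 45.8 and 85.7 CPM in KO mice and 300, 291 and 334 CPM in WT mice. Every KO mouse was below every WT mouse, and mouse 17 was lowest. The log2 fold change was -1.59 (SE 0.45, DESeq2 adjusted p = 0.0658) with 6 mice and -1.24 (SE 0.26, DESeq2 adjusted p = 0.0878) without mouse 17.

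*Cyp39a1*, an oxysterol hydroxylase of bile acid synthesis, had 19.8, 32.4 and 21.7 CPM against 46.9, 39.9 and 27.5 CPM, and here mouse 17 lay within the WT range. The log2 fold change was -0.63 (SE 0.25) with mouse 17 and -0.88 (SE 0.20, DESeq2 adjusted p = 0.0128) without it. *Acox2*, which shortens the side chain of bile acids, was nearly constant within groups, at 224, 226 and 225 CPM against 280, 269 and 273 CPM. *Cyp27a1*, of the alternative pathway, had 305, 119 and 340 CPM against 368, 309 and 332 CPM, and only mouse 17 was outside the WT range by more than a few CPM.

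The urea cycle genes *Ass1*, *Cps1* and *Arg1*, named from the periportal list, had lower levels in KO. *Ass1* had 3150, 2525 and 2988 CPM against 4046, 4348 and 4143 CPM, *Cps1* 5943, 3554 and 5302 CPM against 7372, 7575 and 7521 CPM, and *Arg1* 1229, 1023 and 1199 CPM against 1494, 1532 and 1964 CPM. CPS1 brings ammonia into the cycle, ASS1 joins citrulline with aspartate and ARG1 releases urea, and in all 3 every KO mouse was below every WT mouse. The log2 fold changes were -0.53, -0.60 and -0.53 with 6 mice and -0.45 (SE 0.09), -0.42 (SE 0.10) and -0.46 (SE 0.13) without mouse 17. DESeq2 called *Ass1* in both fits (adjusted p = 0.0411 and 9.86e-05) and *Cps1* only without mouse 17 (adjusted p = 0.00159, against 0.32), and *Arg1* in neither (adjusted p = 0.217 and 0.0683). The 20 periportal genes, which include these, had a median of -0.09 and -0.10, with 1 higher and 2 lower at an unadjusted p below 0.05 with 6 mice, and 1 higher and 5 lower without mouse 17.

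*Id3*, *Id1*, *Atoh8* and *Smad7*, known targets of BMP and SMAD signaling, the pathway that sets hepcidin, had higher levels in KO. *Id3*, which stands in the Kupffer cell list, had 46.8, 57.9 and 37.3 CPM against 25.9, 18.9 and 25.7 CPM, with every KO mouse above every WT mouse. On the log2 scale the fold change was 1.01 (SE 0.20, DESeq2 adjusted p = 0.0211) with 6 mice and 0.84 (SE 0.16, DESeq2 adjusted p = 0.00273) without mouse 17. *Id1* had 10.4, 15.4 and 9.17 CPM against 6.95, 3.26 and 5.99 CPM, *Atoh8* 32.3, 30.9 and 25.6 CPM against 21.5, 9.77 and 14.3 CPM, and *Smad7*, an inhibitor of the pathway, 10.1, 16.8 and 9.58 CPM against 7.87, 5.83 and 6.22 CPM. The groups did not overlap for any of the 4 genes, but DESeq2 called only *Id3*. The list of 20 iron and hepcidin genes, in which *Id1*, *Atoh8* and *Smad7* stand, had a median of 0.01 and 0.05, with 4 higher and 0 lower at an unadjusted p below 0.05 in both fits.

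*Leap2*, a liver hormone that blocks the ghrelin receptor, had 26.0, 15.7 and 21.2 CPM against 43.8, 44.4 and 36.6 CPM. The KO mice were all lower, with log2 fold changes of -0.99 (SE 0.19, DESeq2 adjusted p = 0.0211) and -0.82 (SE 0.13, DESeq2 adjusted p = 0.000258).

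**Figure D4:**
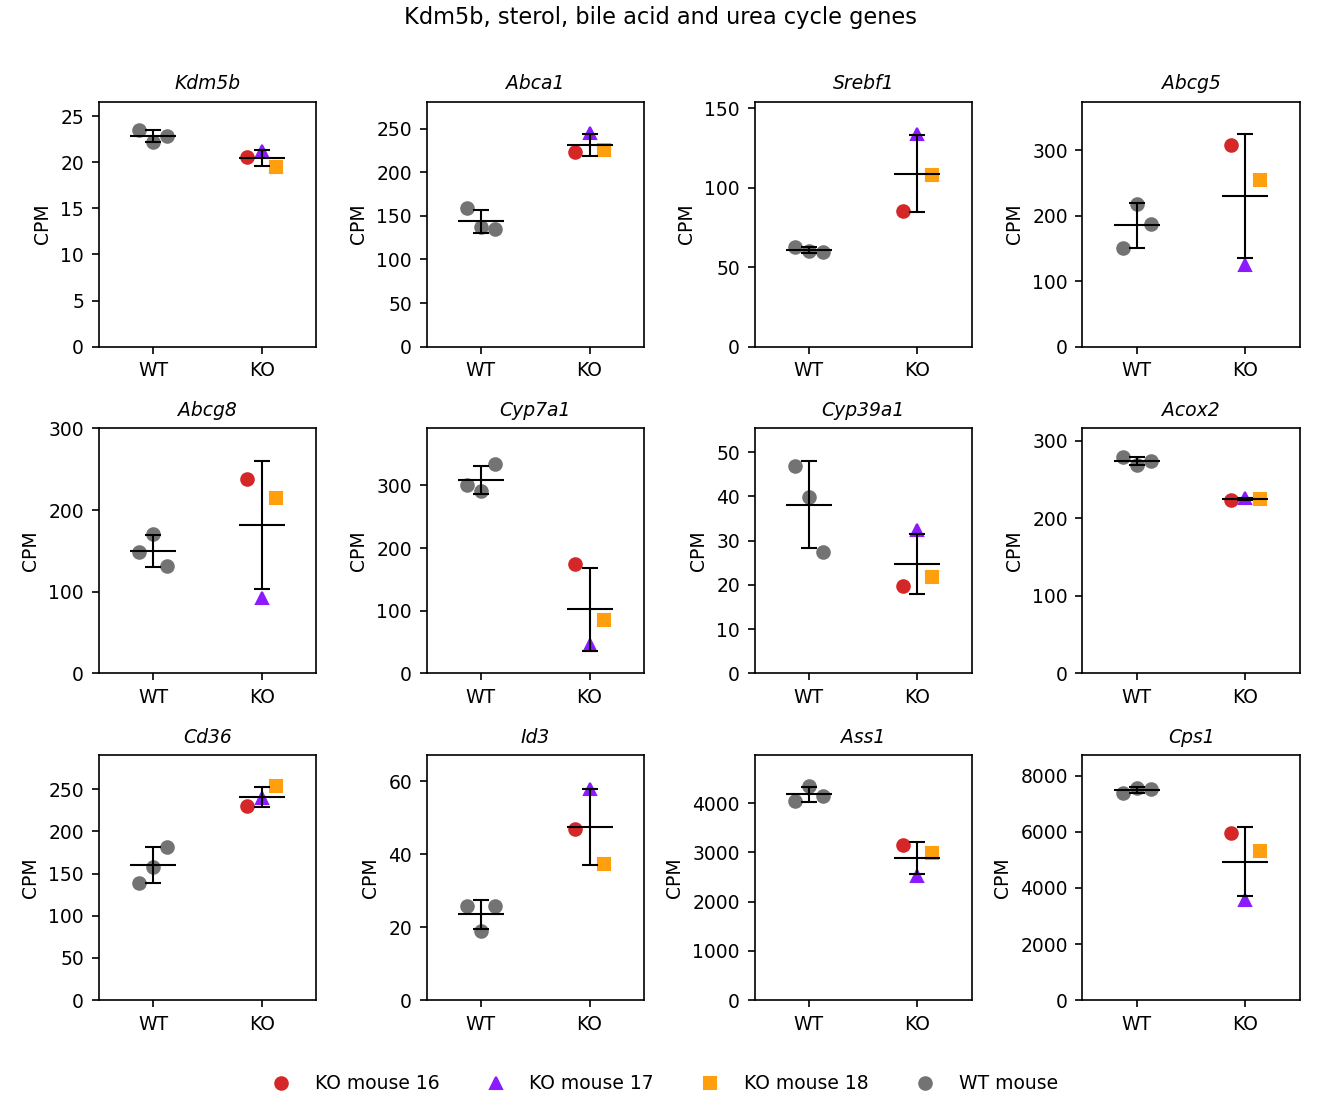
CPM of *Kdm5b* and of sterol, bile acid, BMP and urea cycle genes in each WT and KO mouse, with the mean (bar) and SD (error bars, n = 3) of each group and axes that start at 0. *Abca1* and *Acox2* separate the groups with little spread within them, and KO mouse 17 is lowest for *Abcg5* at 124 CPM and *Abcg8* at 92.4 CPM.

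Genes of fibrosis, macrophages and bile ducts were higher in KO mainly through mouse 17. All 39 genes of the list of extracellular matrix and stellate cells were higher in KO with 6 mice, with a median log2 fold change of 1.22, and 36 were higher without mouse 17, with a median of 0.44. The median was -0.11 when mouse 18 was left out as well. The list summed to 2152 CPM in mouse 17, 933 CPM in mouse 18 and 624 CPM in mouse 16, against 521 to 773 CPM in WT mice. At an unadjusted p below 0.05 there were 12 higher with 6 mice and 6 without mouse 17, with 0 lower. *Col1a1*, the fibrillar collagen of scars, had 4.53, 75.5 and 16.4 CPM against 13.8, 2.17 and 3.17 CPM, so mouse 17 stood far above and WT mouse 19 lay near KO mouse 18. *Timp1*, the inhibitor of matrix proteases, had 0.276, 4.37 and 0.981 CPM against 0.575, 0.400 and 0.117 CPM.

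A few matrix genes were higher in all KO mice. *Postn*, a matrix protein of injury, had 10.6, 14.4 and 11.5 CPM against 8.27, 7.89 and 7.75 CPM, and *Col14a1*, a collagen of fibroblasts, 46.1, 76.4 and 53.5 CPM against 41.7, 28.9 and 33.5 CPM. For both the groups did not overlap. Their log2 fold changes were 0.61 and 0.76 with 6 mice and 0.46 (SE 0.12) and 0.52 (SE 0.15) without mouse 17.

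Scar-associated macrophage genes followed mouse 17 too by mean log2 CPM. It was 5.73 in mouse 17, 4.00 in mouse 18 and 3.08 in mouse 16, against 2.40 to 3.51 in WT mice. The summed level of the list, which weighs abundant members most, was lowest in mouse 17. The sum was 12109 CPM there, 19104 and 20665 CPM in KO mice 16 and 18, and 15932 to 19104 CPM in WT mice. Of 21 tested, 20 were higher with 6 mice and 21 without mouse 17, with a median of 1.96 and 0.71, and 0.16 when mouse 18 was left out as well, and 11 and 6 were higher at an unadjusted p below 0.05, with 0 lower. *Gpnmb* had 2.38, 148 and 24.3 CPM against 14.3, 1.89 and 1.23 CPM, *Trem2* 0.774, 23.3 and 4.73 CPM against 2.01, 0.514 and 0.411 CPM, and *Mmp12*, an elastase of macrophages, 5.20, 69.6 and 10.6 CPM against 5.97, 1.6 and 0.587 CPM. In each, mouse 17 was highest, mouse 18 next, and mouse 16 lay within the WT range. *Lgals3* had 12.1, 59.6 and 17.4 CPM against 10.9, 6.11 and 7.57 CPM, and *Ccl2*, the chemokine that draws monocytes, 2.76, 4.86 and 1.21 CPM against 0.862, 0.857 and 0.704 CPM, both without overlap. *Cd163*, a marker of resident macrophages, was at 0.979 CPM in mouse 17 and at 11.7 to 16.8 CPM in the other 5 mice.

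Bile duct genes were higher in mice 17 and 18. All 18 tested genes of cholangiocytes and the ductular reaction were higher with 6 mice and 16 without mouse 17, with a median of 2.2 and 0.55, and the median was -0.65 when mouse 18 was left out as well. The list summed to 751 CPM in mouse 17, 178 CPM in mouse 18 and 64.9 CPM in mouse 16, against 58.7 to 126 CPM in WT mice, the highest being mouse 19. *Sox4*, a factor of the ductular reaction, had 1.11, 23.1 and 6.35 CPM against 2.64, 1.49 and 1.29 CPM. *Krt23*, a keratin of injured hepatocytes and ducts, was more even, at 9.45, 9.47 and 11.1 CPM against 6.95, 7.71 and 3.35 CPM, without overlap.

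Actin and tubulin genes were higher in KO for 22 of 25 tested with 6 mice and 21 without mouse 17, with a median of 0.61 and 0.27 and 10 and 11 members higher at an unadjusted p below 0.05. *Actg1* had 356, 408 and 255 CPM against 179, 147 and 221 CPM, and *Tubb2a* 128, 358 and 90.3 CPM against 78.7, 73.9 and 44.5 CPM, both without overlap. Inflammatory cytokines and chemokines had a median of 0.67 and 0.33 over 20 tested genes, with 5 higher and 0 lower at an unadjusted p below 0.05 in both fits.

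The major urinary proteins, the most abundant secreted products of the male mouse liver, had a low summed level in mouse 17. The list summed to 5679 CPM in mouse 17, against 119101 and 133356 CPM in KO mice 16 and 18 and 109702 to 125688 CPM in WT mice. *Mup7* had 15388, 460 and 15528 CPM against 17194, 16006 and 16817 CPM. Of 22 tested genes 1 was higher with 6 mice and 12 without mouse 17, and the median was -0.48 and 0.08. As differences of mean log2 CPM the median was -1.42 with 6 mice, with 0 of 22 higher, and 0.08 without mouse 17. The groups did not overlap for 3 lower and 0 higher members with 6 mice, and for 3 lower and 3 higher members without mouse 17. *Mup7* and *Mup20* were among the lower members in each fit. Over all genes tested, 7.86% were lower without overlap with 6 mice, and 13.1% were lower and 12.9% higher without mouse 17. At an unadjusted p below 0.05, 0 were higher and 1 lower with 6 mice, and 4 higher and 1 lower without mouse 17. Mouse 17 combined high scar, macrophage and duct genes with low male-biased genes, while its interferon genes lay among those of the other KO mice.

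**Figure D5:**
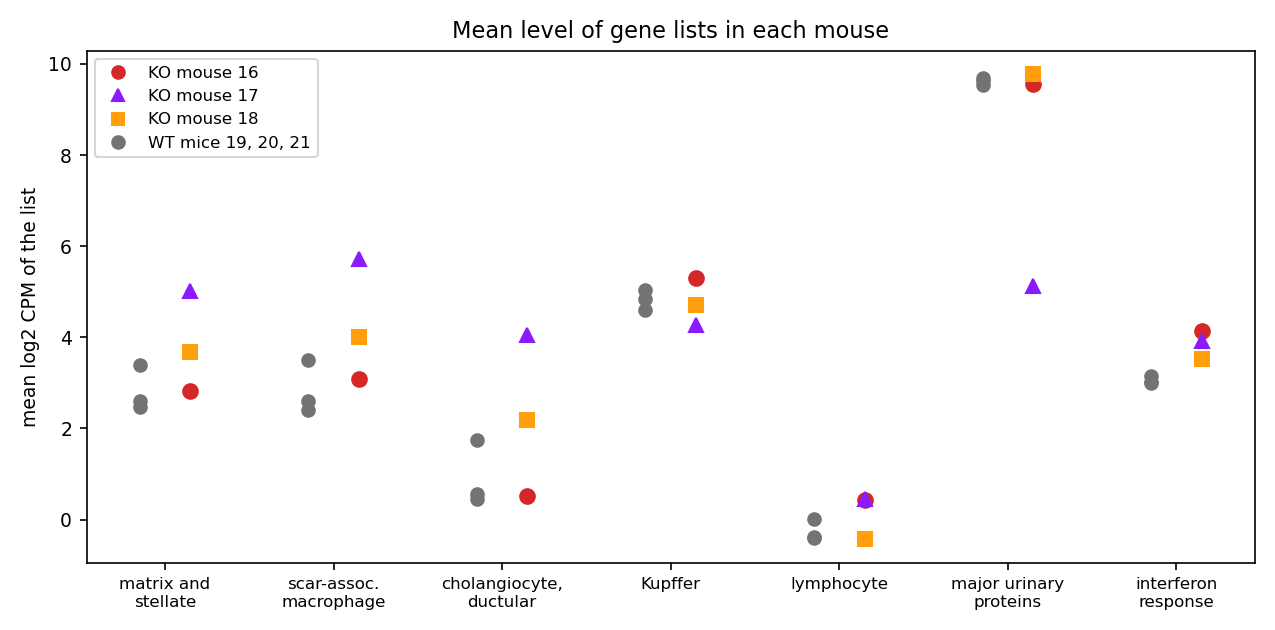
Mean log2 CPM over the members of each list in each mouse, WT on the left and KO on the right of each pair. KO mouse 17 lies apart in the first 3 lists and in the major urinary proteins, but among the KO mice for the interferon list, where all KO mice lie above the WT mice.

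Whether the KO effect in males on WDA differed from that in females on WDA was tested as an interaction of vector and sex. Males and females lie in separate count tables, so sex and table coincide and cannot be told apart. With all mice edgeR called 0 of 12895 genes, with a smallest adjusted p of 0.43, and 1470 genes at an unadjusted p below 0.05. Without mouse 17 it called 0 of 12959 genes, with a smallest adjusted p of 0.871 and 627 genes at an unadjusted p below 0.05. The count was above the number by chance with all mice and slightly below it without mouse 17. DESeq2 called 10 genes with all mice (0.0775%) and 4 without mouse 17 (0.0309%): *Tgtp1*, *Iffo2*, *Cyp39a1* and *Rnf145*. For *Tgtp1* the KO effect was 2.56 in males and -0.62 in females, a difference of 3.18 (SE 0.60) on the log2 scale, and 3.35 (SE 0.61) without mouse 17 (DESeq2 adjusted p = 0.00211 and 0.00283). For *Gbp2* the difference was 1.32 (SE 0.30, unadjusted p = 0.00103 and adjusted p = 0.43 in edgeR's test), with -0.15 in females. *Rnf145*, an LXR target that takes part in degrading HMG-CoA reductase, was 0.46 in males and -0.53 in females, a difference of 0.99 (SE 0.17), and *Iffo2*, which encodes a protein of the intermediate filament family, 0.51 and -0.75, a difference of 1.25 (SE 0.22). *Smad7* was 0.87 and -0.62, a difference of 1.48 (SE 0.32), which DESeq2 called with all mice only (adjusted p = 0.0481). *Cyp39a1* was -0.88 in males and 0.59 in females without mouse 17, a difference of -1.47 (SE 0.31).

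For *Abca1* the difference between the sexes was 0.50 (SE 0.27), for *Cyp7a1* -0.89 (SE 0.79) and for *Kdm5b* 0.36 (SE 0.27). None of these had an unadjusted p below 0.05 in edgeR's test.

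The KO effect in males on WDA was likewise set against that in males after resolution. Here stage, experiment number, count table and the labelled 8 or 16 weeks of WDA coincide and cannot be told apart. edgeR called 0 of 13107 genes, with a smallest adjusted p of 0.0896 and 423 genes at an unadjusted p below 0.05. Without mouse 17 it called 0 of 13212 genes, with a smallest adjusted p of 0.133 and 264 genes. Both counts at an unadjusted p below 0.05 were fewer than chance gives. DESeq2 called 1 gene with and 1 without mouse 17 (0.00763% and 0.00757%), in both cases *Dusp6*. *Dusp6*, a phosphatase that switches off ERK, had 31.7, 29.3 and 34.1 CPM in KO and 43.8, 41.9 and 48.8 CPM in WT mice on WDA, so the groups did not overlap. Its KO effect was -0.52 on WDA and 0.73 after resolution, a difference of -1.25 (SE 0.16, DESeq2 adjusted p = 5.87e-08), and -1.16 (SE 0.16, DESeq2 adjusted p = 4.00e-06) without mouse 17. *Ngfr*, the p75 neurotrophin receptor, had 4.81, 6.32 and 4.90 CPM in KO and 2.82, 1.71 and 2.93 CPM in WT mice on WDA, and its KO effect was 1.08 on WDA and -0.43 after resolution, a difference of 1.5 (SE 0.34, unadjusted p = 0.000856 and adjusted p = 0.932 in edgeR's test). The difference between stages was 2.06 (SE 0.92) for *Tgtp1*, 0.53 (SE 0.24) for *Abca1* and -1.24 (SE 0.53) for *Cyp7a1*, each with an unadjusted p below 0.05 and an adjusted p of 0.932 in edgeR's test with all mice.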

How the data were processed

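Total liver RNA of 6 male mice was sequenced on BGI libraries. The submitters' processing notes name HISAT, Bowtie2 and GRCm38.p6. The deposited table gives expected counts per gene and library (reads estimated by the authors, not normalized), and the authors' FPKM values, which are scaled by gene length and library total. The table lists 16588 genes for these mice, and 0 of its sample columns lacked a sample. The tool that made the counts is not given in the sources used here. The totals of 18122300 to 18810500 counts limit the precision of genes near 1 CPM.

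Expected counts were rounded. The software was edgeR 4.0.16, DESeq2 1.42.0 and limma 3.58.1 under R 4.3.3. Genes were kept with filterByExpr (minimum count 10), scaled with TMM and tested with glmQLFit and glmQLFTest, with Benjamini-Hochberg adjustment at 0.05. Groups were taken from the labels. CPM values use the scaling of all 6 mice, and log2 CPM a prior count of 2. The KO effect was compared with that in females and after resolution by interaction terms. Where count tables were joined for this, a gene that a table did not list was given 0 counts there. The scripts were tested on simulated data. For both fits these had the biological coefficient of variation of the fit without mouse 17, 0.115. The fit of 6 mice had 0.246, so the check does not show how that fit behaves at its own spread. Mouse numbers name mice and do not pair them. No 2 libraries held the same values.

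The samples, the 53 gene lists and the tests were chosen with earlier results of these data known. Named genes are *Kdm5b*, up to 8 genes with the highest and 8 with the lowest fold changes in each fit (unadjusted p under 0.05, mean log2 CPM of at least 2, no overlap), up to 10 DESeq2 calls per fit, up to 3 members at each end of a list, list members with an unadjusted p under 0.05, genes the paper discusses, the 3 smallest p-values per interaction, and the 8 genes at each end of mouse 17 against mice 16 and 18. The text names a part of them, and some withheld items are not reported here. Promoter windows and gene positions are from RefSeq (GRCm38.p6).

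Alternatives were RLE and upper quartile scaling, DESeq2, voom without and with quality weights, no filter, 10 counts in every library, a spread shared by 9 groups, FPKM with a pseudocount of 1, a prior count of 0.5, and leaving out each mouse. Mice of the other groups entered only the interaction tests and the shared spread.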

Additional observations from a re-analysis of the deposited data

How the results depend on the processing

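No paired analysis was possible because mouse numbers name single mice and are not shared between KO and WT males on WDA. In the comparison KO versus WT, WDA males, edgeR or limma called 0 genes under RLE and upper quartile scaling, voom without and with quality weights, both other filters, FPKM and a spread shared by 9 groups, with 6 mice and without mouse 17. DESeq2 called 17 and 93 genes, and in the interactions 10 and 4 genes between sexes and 1 and 1 between stages. With 6 mice, leaving out any 1 mouse gave 0 calls. In KO versus WT, WDA males, without mouse 17, leaving out a further mouse gave 0 to 35 calls: 35 without mouse 18, 2 without mouse 16, and 1 each without mouse 19 and mouse 20. Where 1 KO mouse remains, it is assumed to vary like the WT mice. Genes at an unadjusted p below 0.05 with 6 mice, 958 in all, were 1842 without mouse 16, 328 without mouse 20 and 355 without mouse 21, and 470 on FPKM. Without mouse 17 the 1140 genes became 338 with a spread shared by 9 groups and 736 without mouse 20. With 6 mice voom gave 420 higher and 289 lower.

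FPKM raised the median of all genes with 6 mice to 0.13, the periportal median to 0.07 and the LXR median to 0.19. On FPKM the medians with 6 mice and without mouse 17 were 0.87 and 0.63 for female-biased genes, 0.97 and 0.22 for bile duct genes, 0.81 and 0.28 for matrix genes, 1.23 and 0.36 for scar-associated macrophage genes and 0.98 and 0.40 for MHC class II genes. As differences of mean log2 CPM with 6 mice, the medians were 1.33 for female-biased genes, -1.17 for male-biased genes, 1.49 for bile duct genes and -1.42 for major urinary proteins. *Kdm5b* became 0.0232 on FPKM with 6 mice, and *Bst2* ranged from -0.0399 (without mouse 16) to 0.304 over the mice left out. Without mouse 17 and a further mouse, *Cyp27a1* ranged from -0.141 to 0.0119, *Gpnmb* from -1.29 to 3.09, *Trem2* from -0.337 to 2.55, *Col1a1* from -0.496 to 1.97, *Timp1* from -0.391 to 1.40, *Cd163* from -0.387 to 0.0879 and *Sox4* from -0.704 to 1.80. For *Gpnmb*, *Trem2*, *Col1a1*, *Timp1* and *Sox4* the negative value, and for *Cd163* the positive value, arose without mouse 18. The cause was not tested. Of the other values of named genes under an alternative, 2556 kept direction and side of the threshold and 72 passed it. Of the list medians, 307 moved by less than the pooled SD between mice of the list's mean log2 CPM, and 16 moved by more. In the fit of 6 mice that SD includes mouse 17, so a large move can stay below it.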

Other observations

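Named genes of glucose use differed in opposite directions. In the list of glycolysis and gluconeogenesis, which holds *Pfkfb1*, 16 of 35 tested genes were higher with 6 mice and 20 without mouse 17. The median was -0.09 and 0.11, with 5 higher and 1 lower at an unadjusted p below 0.05 in both fits. *Ppp1r3g*, the fed-state subunit that directs a phosphatase to glycogen, had 47.4, 3.43 and 23.6 CPM in KO mice 16, 17 and 18 and 9.88, 2.80 and 2.64 CPM in WT mice 19, 20 and 21. Mouse 17 lay within the WT range, and the log2 fold change was 2.27 (SE 0.93) with it and 2.79 (SE 0.50) without it (DESeq2 adjusted p = 0.516 and 0.0987). *Pfkfb1*, the liver enzyme that sets fructose 2,6-bisphosphate, had 20.6, 12.9 and 26.1 CPM against 37.7, 31.1 and 34.7 CPM, so every KO mouse was below every WT mouse. *Bhlhe40*, a repressor that the clock and nutrients control, had 83.6, 50.9 and 74.0 CPM against 53.4, 40.1 and 42.6 CPM, and DESeq2 called it without mouse 17 (adjusted p = 0.000258, against 0.389 with 6 mice).

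*Chac1*, a glutathione-degrading enzyme induced by the integrated stress response, had 11.4, 3.59 and 6.69 CPM against 2.93, 1.77 and 1.23 CPM. Its log2 fold changes were 1.86 (SE 0.50) and 2.19 (SE 0.34), with DESeq2 adjusted p-values of 0.0979 and 9.83e-05. Most of its list, endoplasmic reticulum stress, went the other way. Of 28 tested genes, 9 were higher with 6 mice and 10 without mouse 17, with a median of -0.29 and -0.07. At an unadjusted p below 0.05, 3 were higher in each fit, with 2 and 3 lower. *Midn*, which carries short-lived proteins to the proteasome, had 56.4, 62.5 and 58.6 CPM against 43.0, 39.4 and 41.0 CPM, and DESeq2 called it in both fits (adjusted p = 0.0166 and 0.00531). The cytokine receptors *Il6ra* and *Il1r1* were lower in KO. *Il6ra* had 20.7, 20.6 and 27.7 CPM against 30.7, 34.9 and 37.1 CPM, and *Il1r1* 24.4, 37.0 and 29.0 CPM against 38.1, 51.8 and 36.6 CPM, where mouse 17 overlapped the WT mice.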
